A study of Mus musculus with 10 samples.

Results

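Red cell barcodes were taken from 7 pools of embryonic mouse pancreas as all barcodes in which 7 haemoglobin genes (*Hba-a1*, *Hba-a2*, *Hba-x*, *Hbb-bt*, *Hbb-bs*, *Hbb-bh1* and *Hbb-y*) held at least 30% of the UMIs, that had no UMI of the epithelial gene *Epcam*, and that had at most 1 of the mesenchymal gene *Col3a1*. There were 11079 such barcodes among 58120 (19.1%), of which 7852 had under 200 genes and 3227 had 200 or more. The barcodes were chosen by their measured haemoglobin, *Epcam* and *Col3a1* counts and the classes by their number of genes, so these quantities are given as descriptions, with no test. The embryos were untreated Swiss Webster mice of 3 stages, E12.5, E14.5 and lastly E17.5. Each pool held the dissected pancreata of several embryos, so that single embryos could not be told apart. The libraries made with the version 1 (v1) 10x kit held all live cells by Sytox exclusion (1 pool at E12.5, 2 batches at E14.5 and 1 pool at E17.5). The second E14.5 batch shared its collection batch with the v1 pools of E12.5 and E17.5, and the first was gathered on another day. Those made with the version 2 (v2) kit held live cells negative for CD140a, a surface marker of mesenchyme (1 pool at each stage, with E17.5 loaded in 2 wells that were summed). Kit and sort could therefore not be told apart, nor could stage and dissociation time, which was 10 min at E12.5, 15 min at E14.5 and 30 min at E17.5.

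Red cells of the mouse embryo arise in 2 waves. Primitive erythroid cells from the yolk sac enter the circulation while they still have a nucleus, and they mature and lose it in the blood stream. Definitive red cells mature in the fetal liver around macrophages, condense and expel the nucleus there, and enter the circulation as reticulocytes. A reticulocyte makes no new RNA, degrades its ribosomes and mitochondria through autophagy and the ubiquitin system, and keeps translating the messages it holds, above all those of haemoglobin. Heme for haemoglobin starts with Alas2, the erythroid form of the first enzyme of heme synthesis, whose translation depends on iron. The pancreas is not known as a site of red cell formation. Loss of the nucleus was not measured in these libraries, and a barcode with few genes can be a reticulocyte, a damaged cell or free RNA.

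The promoters of 3 genes that recur below are shown as the 250 bases before and 50 after the RefSeq start site on GRCm38.p6, since they carry or lack short binding motifs of the pathways in question. *Alas2* is the marker of the red cells, *Trib3* (a pseudokinase target of the amino acid and stress response) had the largest called fall of a listed gene with stage, and *Atf3* (a stress-induced transcription factor) was called higher. The motifs searched on both strands were AGATAA for GATA factors, CCACACCC for Klf1 and TGATGCAA for the amino acid response. They occurred in 11.2%, 3.56% and 0.895% of 32851 mouse promoters of the same length. Capitals mark a match, which is a description of the letters and not a tested site. The *Alas2* window (chrX:150547167-150547466, plus strand) held the GATA motif on its reverse strand at 86 bases before the start site. The *Trib3* window (chr2:152344011-152344310, minus strand) held none of these letters. The window of *Aqp1*, another listed gene called higher, held none of them either and is not printed. The *Atf3* window (chr1:191183284-191183583, minus strand) held the amino acid response motif on its reverse strand at 110 bases before the start site.
Alas2: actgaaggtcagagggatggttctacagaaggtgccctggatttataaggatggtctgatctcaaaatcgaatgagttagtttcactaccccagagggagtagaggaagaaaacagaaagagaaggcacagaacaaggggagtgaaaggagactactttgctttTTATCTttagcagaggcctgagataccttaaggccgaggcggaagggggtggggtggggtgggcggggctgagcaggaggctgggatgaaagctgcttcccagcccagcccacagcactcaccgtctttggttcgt
Trib3: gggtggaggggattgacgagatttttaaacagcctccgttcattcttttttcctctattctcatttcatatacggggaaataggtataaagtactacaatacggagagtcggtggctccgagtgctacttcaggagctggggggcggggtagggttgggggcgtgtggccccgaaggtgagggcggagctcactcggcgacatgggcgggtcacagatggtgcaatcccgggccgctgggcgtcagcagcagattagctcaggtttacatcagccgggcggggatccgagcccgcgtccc
Atf3: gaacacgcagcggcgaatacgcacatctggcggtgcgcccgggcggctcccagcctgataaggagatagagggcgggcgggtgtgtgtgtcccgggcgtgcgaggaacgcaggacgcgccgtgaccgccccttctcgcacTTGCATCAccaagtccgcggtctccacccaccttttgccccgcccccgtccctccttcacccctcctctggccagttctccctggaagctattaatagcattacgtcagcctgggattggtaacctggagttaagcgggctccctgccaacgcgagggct

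The number of red cell barcodes rose from a few percent of a pool at E12.5 to a large part of it at E17.5, and the gene-poor class came to dominate. At E12.5 they were 6.28% of the v1 pool (exact binomial 95% interval 5.60 to 7.02) and 4.56% of the v2 pool. At E14.5 they were 9.38% and 16.95% of the v1 batches and 2.44% of the v2 pool, and at E17.5 51.8% of the v1 pool and 36.3% of the v2 pool. Both E17.5 pools lay above all others, while the E14.5 pools lay on both sides of those of E12.5. Barcodes with under 200 genes were 4.47% and 2.49% of the red cell barcodes at E12.5, 77.3%, 69.7% and 46.4% at E14.5, then 96.1% and 71.5% at E17.5. The 2 E12.5 pools were below every later pool in this share, and E14.5 and E17.5 overlapped. An exact two-sided permutation test of 2 pools against 2 cannot fall below 0.333, so no p is given for shares between stages. The intervals cover counting error only, and the blood carried into a suspension was not measured. Conversely, 7852 of the 8035 barcodes with under 200 genes in these pools (97.7%) were red cell barcodes.

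**Figure D1:**
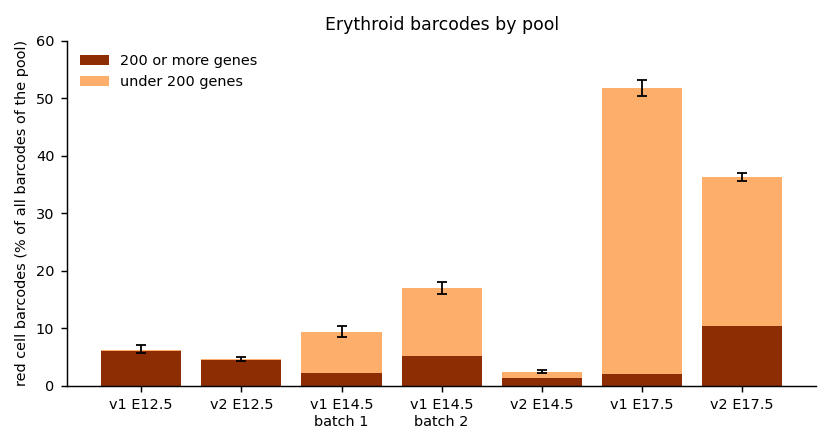
Share of red cell barcodes in each pool (y axis, % of all barcodes), split into those with 200 or more genes (dark) and under 200 genes (light); the bars on top are exact binomial 95% intervals of the total. The dark part is nearly the whole bar in both E12.5 pools, and the light part is the larger one in both E17.5 pools.

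Libraries held 15671934 to 196793242 UMIs per pool. In the class with 200 or more genes, the median barcode had 4440.5 to 12815 UMIs and 265 to 410 genes over the 7 pools. In the gene-poor class, it had 1955 to 7749 UMIs and 54 to 181 genes. In each pool the median gene-poor barcode had fewer UMIs than the median barcode with 200 or more genes, at 4366 against 8589 in the v1 E17.5 pool and 7749 against 12815 in the v2 E17.5 pool, and fewer non-haemoglobin UMIs, at 103 against 739 and 228 against 644. Haemoglobin held 89.2% to 97.5% of the UMIs of the median gene-poor barcode and 85.7% to 95.03% of the median barcode with 200 or more genes, against 0.555% to 5.80% of the UMIs of all other barcodes in a library. When each barcode was thinned to 2000 UMIs, the median number of non-haemoglobin genes was 105 and 130 at E12.5 (v1, v2), 128.5, 55 and 101 at E14.5 (v1 batch 1, v1 batch 2, v2), and 31 in the v1 pool at E17.5 with 47 and 46 in the v2 wells. Thinning left out 149 barcodes of the first E14.5 batch, 433 of the v1 E17.5 pool and at most 39 of any other library, and unthinned the medians were 392 and 404.5, 136, 151.5 and 204, and 56, 154 and 143. Thinning equalised all UMIs, haemoglobin included, so that pools with a higher haemoglobin share kept fewer UMIs of other genes, and no order of the pools is read from these medians.

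Most of the barcodes lay far from the threshold on haemoglobin. A share of 80% or more was found in 10605 of them, 50 to 80% in 322, and 30 to 50% in 152. The 29 barcodes just inside the threshold (30 to 35%) had a median of 1865 genes and 20 of them held an *Alas2* UMI. The 31 just outside (25 to 30%) had a median of 2242 genes and 28 of them held one. The edge of the rule was thus populated by gene-rich barcodes on both sides, and 366 of the 11079 had 1000 or more genes. No doublet caller was run. Within a kit, 1.37% to 1.82% of the red cell barcodes of v1 libraries and 2.66% to 4.66% of v2 libraries had the same barcode sequence as a barcode of another library, against 1.63% to 1.87% and 3.29% to 4.09% of the other barcodes.

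The label was checked against *Alas2*, which the rule did not use. In barcodes with 200 or more genes *Alas2* stood at 8021 and 4600 UMIs per 1000000 non-haemoglobin UMIs of the class (counts per 1000000, CPM) at E12.5, 12472, 24377 and 3113 at E14.5, then 15624 and 16469 at E17.5 (pools in the order v1 then v2, with v1 batches in order, here and below), while the other barcodes of the same pools held 7.07 to 139. Within haemoglobin, embryonic chains (*Hba-x*, *Hbb-bh1*, *Hbb-y*) held 50.6% and 37.6% of the haemoglobin UMIs of this class at E12.5 and at most 2.18% in any later pool. These chains are those of primitive red cells, and their share is a description, since the rule used them.

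RNA of other cell types lay in the red cell barcodes as well, and at each stage the v2 pool held more of it than the v1 pools. Marker lists of acinar, endocrine, duct, mesenchymal, endothelial, macrophage, platelet, mast cell and granulocyte, and hepatocyte genes together held 0.280% and 0.880% of the non-haemoglobin UMIs of the class with 200 or more genes at E12.5, 1.05%, 0.542% and 1.92% at E14.5, then 1.17% and 7.11% at E17.5. In the other barcodes of these pools the same lists held 1.62% to 12.7%. Keeping only barcodes with a haemoglobin share of 80% or more lowered the values to 0.148% and 0.648%, 0.866%, 0.515% and 1.86%, and 0.503% and 5.08%. The v2 E17.5 pool was the highest in every class. The part of free RNA or doublets in the stage differences below was not tested.

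**Figure D2:**
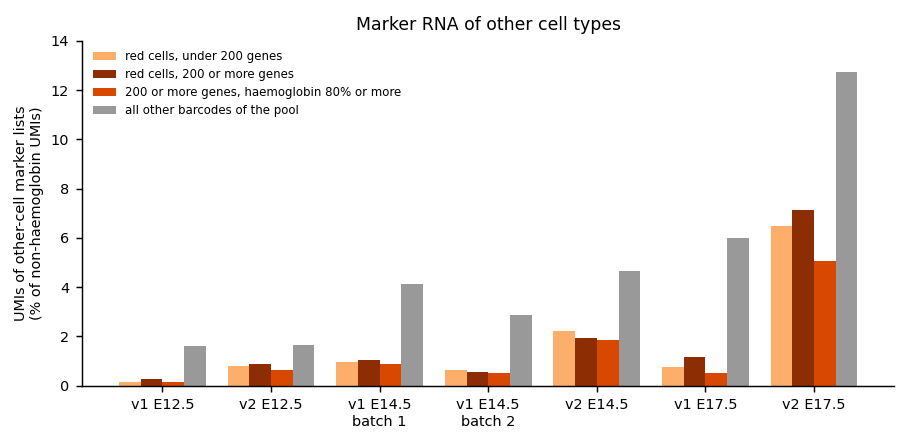
Summed marker genes of other pancreatic and blood cell types (y axis, % of non-haemoglobin UMIs) in the 3 classes of red cell barcodes and in all other barcodes (grey) of each pool. The red cell classes lie below the grey bar in every pool, and the v2 E17.5 pool is the highest of each kind.

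The first question was what the gene-poor barcodes carried besides haemoglobin. To avoid gene-rich barcodes with RNA of other cells, they were set against barcodes of 200 to under 500 genes with a haemoglobin share of 80% or more in the 5 pools of E14.5 and E17.5, a choice made after the data had been seen. Relative to that class, iron storage and ribosomal protein messages and *Alas2* took a larger share of the non-haemoglobin UMIs of gene-poor barcodes. Redox, membrane and transcription factor messages took a smaller share. A larger share does not mean more molecules per barcode, and *Alas2*, given below, was lower per barcode in the gene-poor class. Of 1525 genes with 100 or more UMIs, 125 (8.2%) were higher in the gene-poor class in all 5 pools and 194 (12.7%) were lower in all 5. Because the number of genes itself set the classes, no test is given: a barcode whose molecules come from a few abundant genes falls into the gene-poor class by definition. Levels are shares of the non-haemoglobin UMIs of a class and pool. Against all barcodes with 200 or more genes, RNA of other cells included, 87 of 3722 genes (2.34%) were higher and 1247 (33.5%) lower in all 5 pools, and several lists turned. Ribosomal protein messages then held 11.7% against 13.9% and were higher in 1 of 5 pools, with 3 genes higher in all and 34 lower. Autophagy genes (1.44% against 0.730%) and ubiquitin genes (4.33% against 2.48%) were higher in 5 of 5 pools, and translation control genes (2.45% against 2.34%) in 3. Redox genes (5.21% against 6.49%) and membrane genes (1.65% against 2.07%) were higher in 2 of 5 pools each, and glycolysis genes (0.990% against 0.861%) in 3. Iron genes (16.8% against 5.17%) were higher and transcription factors (0.0791% against 0.291%) lower in 5 of 5, as with the narrower class, and heme genes (6.93% against 3.55%) were higher in 5 of 5, against 4 of 5 with the narrower class. The values that follow are against the narrower class.

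The iron list (uptake and storage) took a median of 16.8% of non-haemoglobin UMIs over the 5 gene-poor pools against 11.1% in the fuller class, and was higher in 5 of 5 pools, with 4 of its 10 measured genes higher in all 5. *Ftl1*, the ferritin light chain, stood at 134252, 171717 and 90259 CPM in the gene-poor class at E14.5 and at 117798 and 80616 at E17.5, against 70317, 99770, 78137, 52194 and 49775 in the fuller class of the same pools. *Ftl1* was higher in every pool, by a median of 1.72-fold. *Fth1*, the heavy chain, was higher by a median of 1.17-fold, and *Pcbp1*, which delivers iron to ferritin, and *Snx3*, which returns the transferrin receptor to the cell surface, by 1.49-fold and 1.39-fold.

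The heme synthesis list was split. Its median share was 6.93% in the gene-poor class and 5.98% in the fuller one, higher in 4 of 5 pools. *Alas2* was the sole gene of the list higher in all 5 pools. *Fech*, another gene of the list, was also higher in the v1 pools of both stages. It stood there at 21498 and 22325 CPM at E14.5 and 30141 at E17.5 in the gene-poor class. *Alas2* stood at 37890, 41219 and 12114 CPM in gene-poor barcodes at E14.5 and 78577 and 63278 at E17.5, against 22149, 31027, 11891, 39124 and 39309 in the fuller class. All 5 pools were higher, by a median of 1.61-fold, although the v2 E14.5 pool was nearly level. Per barcode, *Alas2* was lower in the gene-poor class, at 8.46, 10.6, 3.05, 10.4 and 15.0 UMIs against 13.1, 20.4, 4.70, 23.7 and 24.4. Of the 10 measured genes of the list, 1 was higher in every pool and 4 were lower in every pool. Among the 4 were *Urod*, an enzyme of the middle of the pathway, *Cpox*, which acts after it, and *Fam210b*, a mitochondrial protein needed for heme in red cells, at median ratios of 0.19, 0.30 and 0.54.

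The list of haemoglobin chaperone and redox genes was lower in the gene-poor class in 5 of 5 pools (5.21% against 10.3%), with 4 of 11 measured genes lower in all. *Car2*, carbonic anhydrase, stood at 3805, 1964, 6993, 3191 and 522 CPM against 34003, 15258, 13543, 21755 and 5725. *Gpx1*, which removes peroxides, stood at 10548, 7148, 14559, 26583 and 2565 against 38948, 38208, 24883, 57234 and 15234. Both were lower in each pool, at median ratios of 0.13 and 0.27. *Cat*, catalase, and *Cyb5r3*, which keeps haemoglobin reduced, were at 0.36 and 0.38.

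Genes of the membrane and its skeleton were lower too. The list held 1.65% of the non-haemoglobin UMIs in the gene-poor class and 2.70% in the fuller one, higher in 1 of 5 pools, and 5 of its 17 measured genes were lower in all 5. *Slc4a1*, the anion exchanger that anchors the skeleton, stood at 498, 389, 344, 627 and 171 CPM against 2446, 2218, 587, 1794 and 742. It was lower in each pool, at a median ratio of 0.23. *Epb42*, which links that exchanger to the skeleton, the blood group protein *Kel* and the glucose carrier *Slc2a1* were at 0.14, 0.31 and 0.04.

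Transcription factors of the red cell lineage held 0.0791% against 0.190% and were lower in 5 of 5 pools. The 4 repressors of embryonic globins were also lower in all 5, at 0.0027% against 0.0142%, with no gene of 100 UMIs. Of 6 measured genes, 4 were lower in all: *Klf1*, the factor behind most late erythroid genes, at a median ratio of 0.19, *Nfe2* at 0.08, *Klf3* at 0.46 and *Lmo2* at 0.53. *Klf1* stood at 48.2, 25.5, 38.2, 65.7 and 37.2 CPM against 484, 176, 110, 342 and 73.9. Among genes of nuclear condensation, which held 0.413% against 0.546%, *Xpo7*, a nuclear export receptor required for the chromatin to condense, stood at 161, 57.4, 38.2, 39.4 and 13.0 against 1156, 435, 294, 569 and 121. RNAs kept in the nucleus (*Malat1* and others) held 0.267% against 0.410% and were higher in the gene-poor class in 1 of 5 pools. *Malat1* stood at 867, 3341, 1796, 896 and 3040 CPM against 1425, 2356, 12111, 3474 and 4020. It was thus still found in barcodes with few genes, and the part of free RNA from other cells in this was not tested.

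Ribosomal protein messages held 11.7% in the gene-poor class and 8.12% in the fuller one, higher in 5 of 5 pools, with 19 of 85 measured genes higher in all and none lower in all. Messages of translation control and initiation went the other way, at 2.45% against 3.12% and lower in all 5 pools, *Eif5* and *Eif2ak1* (the heme-regulated kinase that stops translation when heme is short) being at median ratios of 0.33 and 0.08. The autophagy list (1.44% against 1.48%) and the ubiquitin list (4.33% against 4.02%) were close in the classes, higher in gene-poor barcodes in 2 and 3 of 5 pools. Of 8 measured autophagy genes 3 were lower in all 5 pools and none higher in all. Of 15 measured ubiquitin genes 4 were lower in all 5 pools and 1 higher in all. *Mkrn1*, a ubiquitin ligase abundant in late red cells, was higher in each pool, at 27647, 27496, 17960, 50054 and 32923 CPM and a median ratio of 1.21. Glycolysis genes (0.990% against 1.49%) and cell death genes (0.101% against 0.191%) were lower in all 5 pools, and genes of G2 and M phase (0.649% against 0.800%) likewise. Marker genes of acinar cells (0.551% against 0.511%), endocrine cells (0.322% against 0.150%), duct (0.0931% against 0.0618%) and mesenchyme (0.218% against 0.142%) were higher in the gene-poor class in 4, 4, 5 and 5 of 5 pools, and their part in these ratios was not tested.

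**Figure D3:**
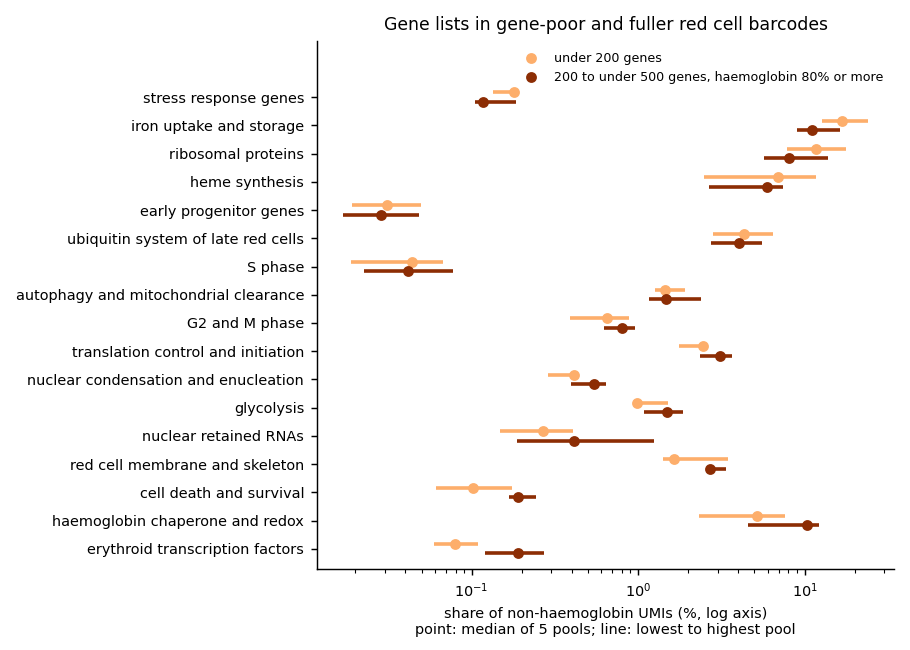
Share of non-haemoglobin UMIs (x axis, %, log scale) held by each gene list in gene-poor barcodes (light) and in barcodes of 200 to under 500 genes with 80% or more haemoglobin (dark), as the median (point) and the lowest to highest (line) of 5 pools. Lists are ordered by the ratio of the medians, from stress, iron and ribosomal protein genes at the top to transcription factors at the bottom; the repressors of embryonic globins, at 0 in a pool, are left out.

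In finer bins of gene number, *Ftl1* fell and *Car2* and *Gpx1* rose with each bin from 50 to under 200 genes in the 4 pools that had these bins, while *Alas2* peaked within this range in both E17.5 pools. In the v1 E17.5 pool *Alas2* stood at 75754 CPM in barcodes with under 50 genes, peaked at 101069 at 50 to under 100 genes and fell to 46023 at 200 to under 300. In the v2 E17.5 pool it peaked at 69582 at 100 to under 150 genes and fell to 3317 at 1000 or more. *Ftl1* fell from 231588 to 55792 between under 50 and 150 to under 200 genes in the v1 E17.5 pool. *Car2* rose over the same bins from 226 to 10940 and *Gpx1* from 1467 to 60068. Barcodes with 1000 or more genes were poor in red cell messages.

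**Figure D4:**
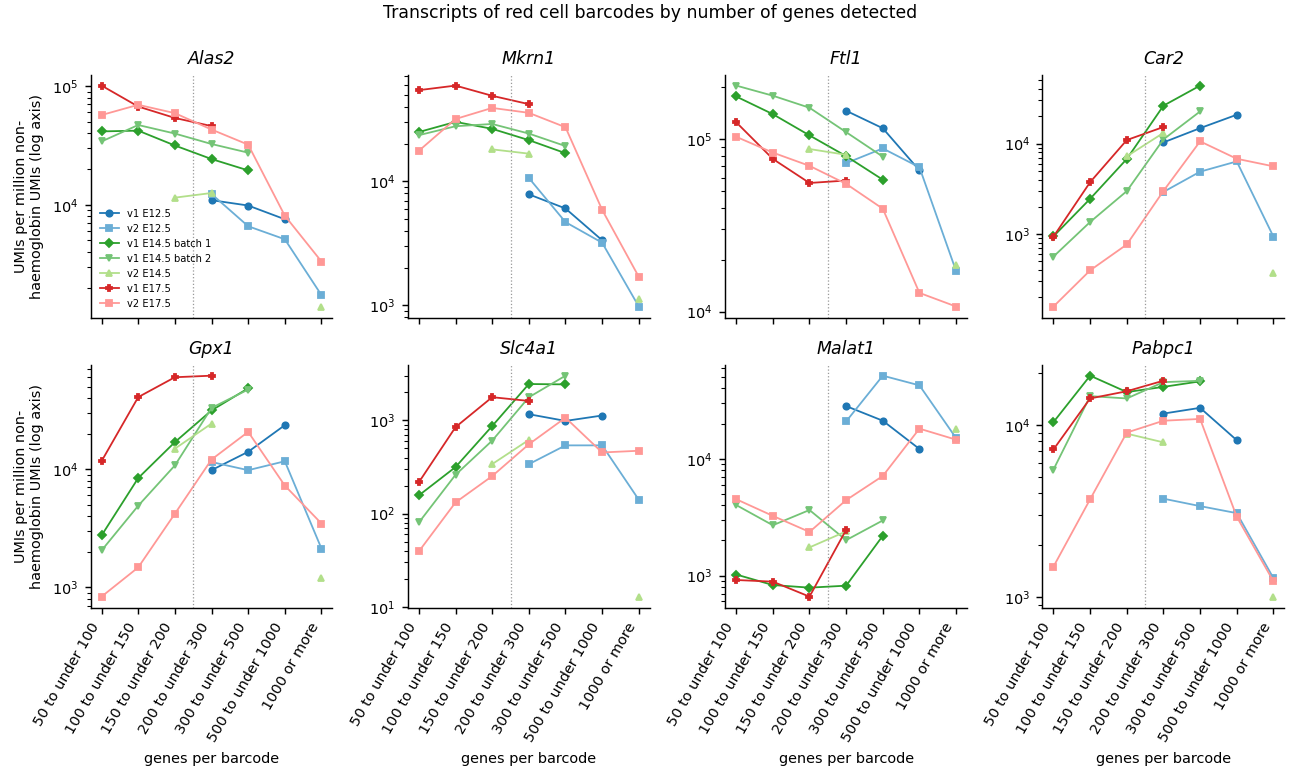
Level (y axis, CPM of non-haemoglobin UMIs, log scale) of 8 genes in bins of genes per barcode (x axis), 1 line per pool; the dotted line marks 200 genes, and bins with too few barcodes are left out. In the E14.5 and E17.5 pools *Car2* and *Gpx1* climb with gene number from 50 to under 300 genes, and *Alas2* and *Mkrn1* drop at 500 genes and above.

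The second question was how the barcodes with 200 or more genes changed with stage. This class held 278 of 291 and 587 of 602 red cell barcodes at E12.5. At E14.5 it held 82 of 361, 266 of 878 and 120 of 224, and at E17.5 93 of 2400 and 1801 of 6323. Nearly all red cell barcodes of E12.5 were thus compared with a gene-rich minority at E17.5. The changes below are those of the class and not of all red cells of a stage. UMIs were summed per pool and class and tested with edgeR's quasi-likelihood test with the kit as a covariate, Benjamini-Hochberg adjustment over all genes, and a call at adjusted p below 0.05 and 2-fold or more. Fold changes are on TMM scaling, so they can differ from the ratio of printed levels. The SE given after a log2 change was worked back from the test, as the size of the change over the square root of its F statistic. Taking all barcodes of 200 or more genes, 133 of 3282 genes tested (4.05%) were called between E17.5 and E12.5, of which 79 were higher and 54 lower. Library sizes from all UMIs, haemoglobin included, gave 46 calls, 39 higher and 7 lower. With the first v1 batch, the second v1 batch and v2 as levels of a block (the batch and kit block) in place of the kit, 221 were called, and all 133 were among them. Leaving out the markers of other cell types, 4 listed genes passed. They were 1 of 26 tested membrane genes, 1 of 10 autophagy genes, 1 of 9 cell death genes and 1 of 10 stress genes. The remaining lists, among them 14 heme and 19 ubiquitin genes, had no call, beside 4.05% over all genes. The 4 are therefore described as single genes, and no result about a list is read from them. *Trib3* (584 and 220 CPM in the E12.5 pools, 0, 37.2 and 15.2 in those of E14.5, 0 and 2.72 in those of E17.5) and *Bnip3*, a mitophagy gene (394 and 190, 142, 37.2 and 45.6, 61.5 and 48.2), were lower at E17.5, by -6.52 ± 0.88 (SE) and -2.30 ± 0.57 log2 units (adjusted p 0.00217 and 0.0493, edgeR). Both E12.5 pools were above every later pool for both genes. *Atf3* was higher (3.19 ± 0.68, adjusted p 0.0242, edgeR), but it was 5.37 to 309 CPM in the other barcodes of these pools and 0 to 101 in the red cells. *Aqp1*, the water channel of the red cell membrane, was also called higher, with 0 and 1.34 CPM at E12.5 and 141 and 96.0 at E17.5, where no fold is given against counts near 0.

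Of the 79 genes called higher at E17.5, 24 stood at least 2-fold above the other barcodes of their pools, and the 6 with the largest changes were genes of mast cells and basophils. *Tpsb2*, a mast cell tryptase, was 0 and 0, 0, 4.65 and 5.07, and 1257 and 506 CPM. *Cma1*, mast cell chymase, was 0 and 4.03, 25.7, 9.30 and 10.1, and 1002 and 617. *Mcpt8*, a basophil protease, was at 0 in all 5 earlier pools and at 484 and 56.0 at E17.5. *Hdc*, *Tpsab1* and *Cpa3* were the others. Of the 12 genes of the mast cell and granulocyte list 8 were abundant enough to be tested, through their E17.5 pools, so the number called among them is not read. These transcripts are not those of red cells. In barcodes with 80% or more haemoglobin *Tpsb2* stood at 21.8 and 127 at E17.5, and the granulocyte genes *S100a8* and *S100a9*, tested there through the same pools, stood at 87.1 and 227, and 152 and 188 CPM at E17.5, against 0 to 36.7 in the earlier pools. The 54 genes called lower held 28 that stood above the other barcodes. *Nudt4*, a phosphohydrolase, was at 23771 and 11106, 837, 1855 and 86.2, and 906 and 110 CPM, lower at E17.5 by -6.02 ± 1.20 (adjusted p 0.0178, edgeR). *Pdzk1ip1*, *Krt15* and *Tspan18*, a membrane tetraspanin, were lower by -5.27 ± 1.03, -5.17 ± 0.67 and -4.63 ± 0.58 (adjusted p 0.0172, 0.0019 and 0.0018, edgeR). Without the v2 E17.5 pool *Krt15* stood at -9.89 and *Trib3* at -10.66. *Ackr3*, a chemokine scavenger, was at 1081 and 65.9 at E12.5 and 0 to 9.30 later. Leaving out the v1 or the v2 E12.5 pool left 70 and 54 calls, and leaving out the v2 E14.5, v1 E17.5 or v2 E17.5 pool gave 299, 458 and 228, and leaving out the first v1 E14.5 batch 198.

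Between E14.5 and E12.5, 11 of 3282 genes (0.335%) were called, 2 higher and 9 lower. This balance turned with other choices, to 5 higher and 4 lower with library sizes from all UMIs, and to 67 higher and 26 lower without the v2 E14.5 pool. *Tspan18* (740 and 577, then 25.7, 27.9 and 25.4) was lower by -4.86 ± 0.53 (adjusted p 0.00482, edgeR) and *Srxn1*, which repairs oxidised peroxiredoxins (199 and 78.0, then 25.7, 9.30 and 15.2), by -3.42 ± 0.54 (adjusted p 0.0344, edgeR). *Trib3* was lower by -4.44 ± 0.69 (adjusted p 0.0344, edgeR). *AI662270*, a gene of unknown role, was higher by 4.44 ± 0.74 (adjusted p 0.0424, edgeR), at 5.67 and 6.72, then 425, 139 and 101, and 615 and 321 at E17.5. The pools of the 2 stages did not overlap for any of these 4 genes. No gene of 4386 was called without the v1 E12.5 pool (117 at an unadjusted p below 0.05), and 6, 7 and 3 without the v2 E12.5 pool and the first and second v1 E14.5 batch. Without the v2 E14.5, v1 E17.5 or v2 E17.5 pool there were 93, 149 and 139. Between E17.5 and E14.5, 34 of 3282 (1.04%) were called, 30 higher and 4 lower. With the batch and kit block 52 were called. No gene of the erythroid lists was among the 34. *Krt15* was lower by -3.75 ± 0.67 (adjusted p 0.0215, edgeR) and stood at -8.38 without the v2 E17.5 pool. Without either E12.5 pool 59 were called, and 14, 152 and 134 without the second E14.5 batch, the v1 E17.5 or the v2 E17.5 pool. The 3 comparisons share pools, so their values are not independent.

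Because 7.11% of the non-haemoglobin UMIs of the v2 E17.5 pool came from other-cell marker genes, the stages were also compared in barcodes with 200 or more genes and 80% or more haemoglobin. The set was chosen for close description after the data had been seen. It held 257 and 530 barcodes at E12.5, 63, 251 and 69 at E14.5, then 67 and 1517 at E17.5, with 279821 and 429527, 37203, 173473 and 27247, and 45925 and 1008958 non-haemoglobin UMIs. In the v2 E14.5 pool 1 UMI was thus 36.7 CPM, and levels there are coarse. The set was most of the red cell barcodes at E12.5 (257 of 291 and 530 of 602). At E17.5 it was a smaller part (67 of 2400 and 1517 of 6323). Changes with stage are therefore those of the set and not of all red cells. Between E17.5 and E12.5, 342 of 1961 genes (17.4%) were called, 219 higher (11.2%) and 123 lower (6.27%). Of these, 151 and 62 stood at least 2-fold above the other barcodes. The median log2 change of all genes was -0.09. The counts of list members that follow stand beside these shares, and lists with few tested genes give a coarse share. All lists were written with earlier results of these data known. A listed gene low at E12.5 can also pass the filter on low counts through the later pools. The counts are therefore descriptions, here and between E14.5 and E12.5, and no enrichment of a list is read from them.

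Of the ubiquitin system of late red cells 9 of 18 tested genes were called higher and none lower, with a median log2 change of 1.97. *Mkrn1* stood at 5475 and 4784 CPM at E12.5, 19434, 21957 and 16332 at E14.5, then 29853 and 30533 at E17.5 (2.83 ± 0.75, adjusted p 0.00838, edgeR). *Ubac1*, part of a ubiquitin ligase complex, was 257 and 165, 1693, 1251 and 991, and 1459 and 1157 (2.92 ± 0.61, adjusted p 0.000906, edgeR). Both genes were lower in the E12.5 pools than in every later pool. *Ube2l6*, a conjugating enzyme, rose by 2.23 ± 0.63 (adjusted p 0.0142, edgeR), from 415 and 973 to 2635 and 2710. *Rnf10*, *Fbxo7*, *Cul4a*, *March8*, *Rnf123* and *Usp32* were the others called, *Rnf123* at 3.57 and 4.66 CPM at E12.5 and so close to no counts there.

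Of the heme synthesis list 4 of 14 were called higher and 1 lower (median 0.72). *Alas2* stood at 9431 and 6661 at E12.5, 22149, 29307 and 11891 at E14.5, then 32836 and 36783 at E17.5 (2.48 ± 0.78, adjusted p 0.0257, edgeR). *Fech*, which inserts iron into the ring at the end of the pathway, stood at 5207 and 2999, 15079, 18314 and 8111, and 18726 and 13855 (2.31 ± 0.72, adjusted p 0.0244, edgeR). Both were lowest in the E12.5 pools. *Slc25a39*, a mitochondrial glutathione carrier, and *Tspo2*, an erythroid transporter protein, rose by 2.01 ± 0.60 and 1.97 ± 0.61 (adjusted p 0.0187 and 0.0238, edgeR). *Tmem14c* was lower, but its level in the other barcodes was as high as in the red cells.

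Of 12 iron genes 3 rose and 1 fell (median 0.39). *Iscu*, the scaffold of iron-sulphur clusters, was at 236 and 321, 591, 1113 and 697, and 1677 and 1540 CPM (2.77 ± 0.62, adjusted p 0.00192, edgeR). *Slc25a37*, mitoferrin, which imports iron into mitochondria, rose by 2.23 ± 0.63 (adjusted p 0.0138, edgeR). *Tfrc*, the transferrin receptor, rose by 1.62 ± 0.56 (adjusted p 0.0437, edgeR) from 32.2 and 34.9 to 196 and 50.5. *Hmox1*, which breaks heme down, fell by 4.98 ± 0.76 log2 units (adjusted p 3.77e-05, edgeR). Its levels were 650 and 573 at E12.5, 0, 98.0 and 0 at E14.5, then 21.8 and 10.9 at E17.5, and no later pool reached those of E12.5. The ferritin chains *Ftl1* and *Fth1* did not pass the test (-0.76 ± 0.78 and -0.96 ± 0.83, adjusted p 0.559 and 0.467, edgeR).

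Membrane genes rose in 5 of 24 cases and none fell (median 0.76). The share called in either direction is near the 17.4% over all genes and is no result about the list. *Cd24a*, a surface glycoprotein, was 1190 and 1869, 7042, 11316 and 4734, and 13740 and 10914 (3.22 ± 0.74, adjusted p 0.00259, edgeR). Its E12.5 pools were the lowest. *Cd47*, which signals self to macrophages, the amino acid carrier *Slc43a1* and *Slc2a1* were also called higher, and the v2 pools were far lower than v1 pools for *Slc2a1* (202 against 1502 at E17.5). *Slc4a1* did not pass (0.98 ± 0.59, adjusted p 0.283, edgeR).

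Of 9 transcription factors tested, 3 rose and 2 fell (median 0.61). *Lmo2*, a bridge protein of the GATA complex, was 111 and 83.8, 564, 876 and 404, and 1023 and 582 CPM (3.23 ± 0.59, adjusted p 0.000302, edgeR), lower at E12.5 in both pools than in any later pool. *Hemgn* and *Foxo3*, which controls the antioxidant genes of red cells, rose by 2.40 ± 0.56 and 2.02 ± 0.54 (adjusted p 0.00274 and 0.00872, edgeR). *Tal1*, the partner of *Lmo2*, was 590 and 342, 26.9, 138 and 0, and 109 and 24.8 and fell by 2.93 ± 0.63 (adjusted p 0.00129, edgeR). *Lyl1*, its close relative, was 354 and 319, 26.9, 92.2 and 36.7, and 43.5 and 24.8 and fell by 3.06 ± 0.60 (adjusted p 0.000562, edgeR). *Klf1* and *Gata1* did not pass (0.69 ± 0.51 and 0.47 ± 0.62, adjusted p 0.388 and 0.656, edgeR). *Sox6*, which represses embryonic globin genes, was the sole tested gene of the 4 listed repressors and rose by 2.76 ± 0.61 (adjusted p 0.00181, edgeR), from 10.7 and 27.9 to 218 and 80.3.

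Genes of nuclear condensation rose in 3 of 11 cases and none fell (median 1.13). *Hist1h1c*, a linker histone, was 311 and 123, 323, 542 and 147, and 1372 and 1930 CPM (3.49 ± 0.70, adjusted p 0.000685, edgeR), and the E17.5 pools lay above all others. *Riok3*, a kinase needed for enucleation in cultured mouse erythroblasts, was 275 and 324, 914, 1493 and 624, and 1590 and 1851 (2.82 ± 0.65, adjusted p 0.00259, edgeR). *Xpo7* did not pass (1.13 ± 0.55, adjusted p 0.164, edgeR). Of G2 and M phase genes 4 of 10 rose (median 1.01). *Ube2c*, the conjugating enzyme of the anaphase complex, was 325 and 792, 5914, 9160 and 4624, and 7686 and 6447 (3.90 ± 0.76, adjusted p 0.000499, edgeR). *Nusap1*, a spindle protein, was 57.2 and 105, 887, 565 and 551, and 827 and 682 (3.43 ± 0.60, adjusted p 0.000157, edgeR). Later pools exceeded both E12.5 pools for each. *Mki67* and *Ccnb2* were the others, and none of 3 S phase genes was called.

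Autophagy genes were mixed, with 3 of 10 higher and 1 lower (median 0.58). *Gabarapl2*, an autophagosome protein, was 465 and 1134, 1532, 3044 and 3377, and 2961 and 6829 CPM (2.90 ± 0.69, adjusted p 0.00338, edgeR), and its E12.5 pools were the lowest. *Bnip3* was 450 and 275, 80.6, 28.8 and 36.7, and 65.3 and 43.6 and fell by 2.35 ± 0.55 (adjusted p 0.003, edgeR). Its relative *Bnip3l*, which clears mitochondria from reticulocytes, did not pass (1.64 ± 0.68, adjusted p 0.0979, edgeR). Of 7 stress response genes 2 were called higher and none lower (median 1.27), the immediate early genes *Fos* (2.74 ± 0.65, adjusted p 0.00326, edgeR) and *Egr1* (2.53 ± 0.65, adjusted p 0.00614, edgeR), which respond to cell dissociation. *Fos* was 42.9 and 112, 296, 323 and 257, and 1154 and 181 CPM, below the level in the other barcodes of each pool (186 to 2338). Dissociation time went with stage, and its part was not tested. Of 4 nuclear retained RNAs 2 fell. *Malat1* was at 19116 and 47741, 1425, 2750 and 12111, and 4682 and 6368 (-2.25 ± 0.72, adjusted p 0.0294, edgeR), while the other barcodes held 3640 to 15518. Of 7 cell death and survival genes 2 fell, the pore former *Bax* by 2.60 ± 0.58 (adjusted p 0.00187, edgeR) and *Trib3* (adjusted p 1.02e-06, edgeR). *Trib3* stood at 586 and 366, 0, 46.1 and 36.7, and 0 and 0.991, which is 1 UMI in both E17.5 pools together, so no fold is given.

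Of 13 genes of translation control 2 rose and 1 fell (median 0.32), which is near the share over all genes (11.2% higher and 6.27% lower) and no result about the list. *Eif5*, an initiation factor, was 625 and 1197, 5080, 5217 and 7450, and 6228 and 3155 CPM (2.55 ± 0.66, adjusted p 0.00718, edgeR), *Pabpc4*, a poly(A) binding protein, rose by 2.55 ± 0.60 (adjusted p 0.003, edgeR) and *Eif4ebp1*, which holds back initiation, fell by 2.75 ± 0.63 (adjusted p 0.00257, edgeR). Of 10 glycolysis genes *Pgam1* alone was called, and its levels differed by kit (43.5 in the v1 and 1744 in the v2 pool at E17.5).

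**Figure D5:**
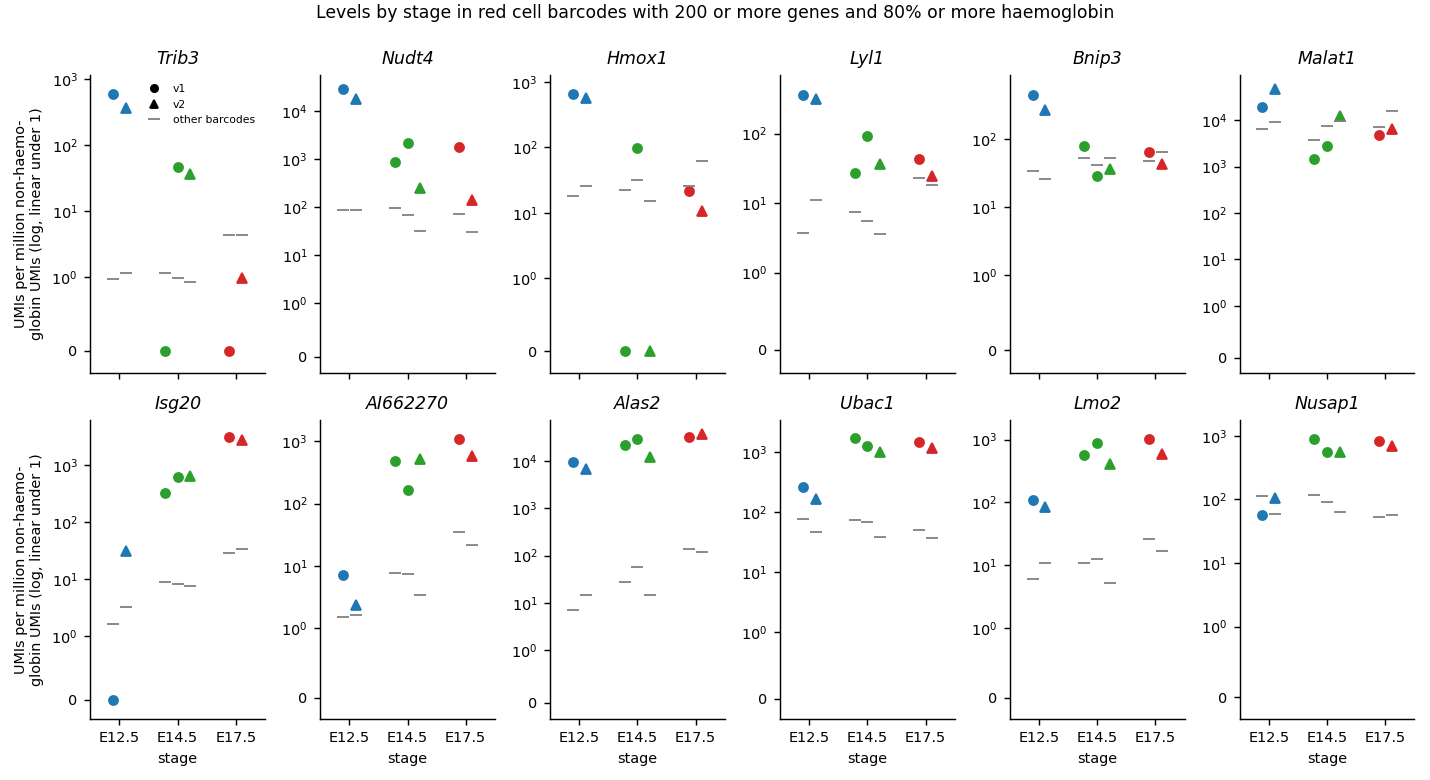
Levels (y axis, CPM of non-haemoglobin UMIs, log scale, linear under 1) of 12 genes by stage in barcodes with 200 or more genes and 80% or more haemoglobin; circles are v1 pools, triangles v2 pools and grey dashes the other barcodes of the same pool. The 6 genes of the upper row are highest at E12.5 and the 6 of the lower row are lowest there.

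The largest changes among called genes that stood above the other barcodes, most of them outside the lists, were these. *Isg20*, an exonuclease (chr7:78913424-78920396, plus strand, mm10), had 0 and 30.3 CPM at E12.5, 323, 611 and 624 at E14.5, then 3027 and 2753 at E17.5 (7.80 ± 0.90, adjusted p 8.76e-07, edgeR). Its levels climbed with each stage without overlap, but it was not called between E17.5 and E14.5, and a fold against pools with few counts is uncertain. *AI662270* was 7.15 and 2.33, 484, 167 and 514, and 1089 and 585. *Cdc25b*, a phosphatase that starts mitosis, was 60.8 and 65.2, 403, 623 and 257, and 1198 and 1324 (4.61 ± 0.67, adjusted p 2.29e-05, edgeR). *Car1*, a carbonic anhydrase and the sole call among 12 tested genes of the haemoglobin chaperone and redox list, was at 0 in both E12.5 pools, at 53.8, 0 and 73.4, and at 109 and 70.4. *Cd36* and *Syt14* were called higher from levels of at most 14.0 at E12.5. Among the falls, *Nudt4* was at 28572 and 17461, 887, 2173 and 257, and 1807 and 145 (-5.38 ± 0.87, adjusted p 6.68e-05, edgeR). *Tspan18* was at 901 and 887, 53.8, 34.6 and 0, and 0 and 5.95 (-6.66 ± 0.78, adjusted p 1.01e-06, edgeR), and the E12.5 pools lay far above the rest for both. The fold of *Tspan18* rests on very few counts at E17.5, so its size is uncertain. *Pls3*, an actin bundling protein, was 436 and 212, 26.9, 40.4 and 0, and 0 and 1.98. *Ackr3* was 1279 and 100, 0, 11.5 and 0, and 0 in both E17.5 pools. *Ston2*, an endocytic adaptor, was 71.5 and 41.9, 80.6, 23.1 and 0, and 0 in both E17.5 pools. *Trib3*, given above, was also among the 6 largest falls.

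Genes of other cells were also among those called higher at E17.5, including the acinar genes *Ctrb1*, *Cela1*, *Clps* and *Pnliprp1*, the endocrine genes *Iapp*, *Ins1*, *Ins2*, *Sst*, *Chga* and *Cpe*, the duct genes *Spp1*, *Clu* and *Krt18*, *S100a8* and *S100a9*, the macrophage gene *Lyz2* and the mesenchymal genes *Dcn* and *Lum*, while the mesenchymal gene *Mdk* was called lower. Of the listed markers 6 of 20 acinar, 10 of 12 endocrine and 5 of 10 duct genes could be tested, and a marker low at E12.5 passes the filter on low counts through the later pools, so the shares called among them are not read. With the RNA of the other barcodes subtracted, no gene of 1337 was called and 295 had an unadjusted p below 0.05. Counts that fell below 0 after subtraction were set to 0, which can enlarge a fold. The sizes that follow are therefore descriptions, and the part of free RNA was not tested by them. Of the 342 called genes 300 were tested after subtraction, and 298 kept their sign. Their median size went from 2.39 to 2.91 on the log2 scale while the median SE went from 0.62 to 1.07. For the 50 erythroid and other listed genes outside the markers of other cells that could be tested, the sizes were 2.55 and 2.54, and all kept their sign. *AI662270*, *Isg20* and *Tspan18* stood at 7.17, 7.59 and -7.63 after subtraction (adjusted p 0.0564 each, edgeR). The v2 E17.5 pool decided how many genes passed: without it, 8 of 1857 genes were called (*AI662270*, *Ackr3*, *Emb*, *Ins1*, *Ins2*, *Isg20*, *Ndufa4l2* and *Tspan18*), and 128 and 141 without the v1 or the v2 E12.5 pool. When the library size was taken from all UMIs, haemoglobin included, the median of all genes moved to -1.07 and 247 were called, 52 higher and 195 lower. Leaving out the markers of other cell types, 51 listed genes were called. They kept their sign under each alternative in which they were tested, but none of them passed without the v2 E17.5 pool, 32 passed without the v1 E17.5 pool, 16 and 22 without the v1 or the v2 E12.5 pool, and 7 without the kit term. *Bax*, *Bnip3*, *Ccnb2*, *Cul4a*, *Fbxo7*, *Fos*, *Foxo3*, *Malat1*, *March8*, *Slc2a1*, *Sox6* and *Tfrc* were among those lost when either E17.5 pool was left out. The sizes moved as well. Without the v2 E17.5 pool *Alas2*, *Fech*, *Slc25a37*, *Hist1h1c* and *Pabpc4* stood at 1.34, 1.51, 1.27, 1.84 and 1.55, and *Eif4ebp1* and *Tspan18* at -8.73 and -10.48. Without the v2 E12.5 pool *Isg20*, *Egr1*, *Fos* and *Eif4ebp1* stood at 12.37, 3.98, 4.16 and -4.71. Without the v1 E12.5 pool *Fos* and *Tfrc* stood at 1.54 and 1.04, and *Fos* at 1.68 without the v1 E17.5 pool.

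Between E14.5 and E12.5 the same set gave 247 of 1961 genes (12.6%), 118 higher (6.02%) and 129 lower (6.58%), with a median log2 change of all genes of 0.05. With the batch and kit block 133 were called, 132 of them among the 247, and 17 of the 34 listed genes outside the markers of other cells. Of the ubiquitin list 3 of 18 rose (median 1.12), *Ubac1* by 2.48 ± 0.58 (adjusted p 0.00506, edgeR). *Lmo2*, *Cd24a* and *Tspo2* rose by 2.53 ± 0.58, 2.25 ± 0.72 and 1.83 ± 0.59 (adjusted p 0.00465, 0.0386 and 0.0381, edgeR). *Ube2c* and *Nusap1* rose by 3.61 ± 0.76 and 2.99 ± 0.59 (adjusted p 0.0023 and 0.00116, edgeR). *Alas2*, *Fech* and *Mkrn1* did not pass here, with 1.25 ± 0.71, 1.57 ± 0.67 and 1.82 ± 0.69 (adjusted p 0.28, 0.127 and 0.0811, edgeR). Lower were *Hmox1*, *Tal1*, *Lyl1*, *Bnip3* and *Trib3*, by 3.53 ± 0.66, 2.84 ± 0.62, 2.38 ± 0.57, 3.25 ± 0.61 and 3.86 ± 0.64 log2 units. *Xk*, a membrane transport protein (482 and 198, then 108, 80.7 and 0), and *Abcb10*, a mitochondrial exporter of heme synthesis (172 and 48.9, then 26.9, 28.8 and 0), fell by 2.42 ± 0.60 and 2.65 ± 0.69 (adjusted p 0.00806 and 0.0106, edgeR). *Malat1* fell by 2.77 ± 0.64 (adjusted p 0.00465, edgeR), although its v2 E14.5 pool was at 12111. Of the genes named here *Cd24a*, *Tspo2* and *Malat1* were not called with the batch and kit block (adjusted p 0.0787, 0.294 and 0.0525, edgeR). Leaving out 1 pool moved *Cd24a* to 1.502 (v1 E12.5), *Tspo2* to 1.14 (first v1 E14.5 batch), and *Hmox1*, *Tal1* and *Lyl1* to -10.33, -5.22 and -3.65 (second v1 E14.5 batch).

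Genes outside the lists that were largest in this comparison included *Diaph3*, a formin (17.9 and 23.3, then 215, 173 and 624), which rose by 3.86 ± 0.60 (adjusted p 0.0001, edgeR), and *Nxpe2*. *Nudt4* fell by 5.21 ± 0.75 (adjusted p 4.01e-05, edgeR), and *Utp6*, *Acp5* and *Cited4* fell to 0 to 26.9 CPM from 72.2 to 1269. Acinar and endocrine genes such as *Cpa1*, *Ctrb1*, *Ins1* and *Sst* were called higher as well, with the same limit on reading their number. The count rested on 1 pool more than any other, at 23 without the v1 E12.5 pool, and it was 115, 149 and 143 without the first v1 E14.5 batch, the v2 E14.5 pool or the v2 E17.5 pool. Without the kit term 3 genes were called, and none of the 34 listed genes was among them. Most of these listed genes also lost their call without the v1 E12.5 pool, a fit that leaves 1 pool at that stage. With all-UMI library sizes the calls were 169, 58 higher and 111 lower.

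Between E17.5 and E14.5, 1 of 1961 genes was called (0.051%), *Ndufa4l2*, which was looked at because it was the sole call. DESeq2 called 4, and 164 genes had an unadjusted p below 0.05 in edgeR. No gene of any list was called, and *Alas2* differed by 1.24 ± 0.73 (adjusted p 0.676, edgeR). *Cdc25b* differed by 1.82 ± 0.58 (adjusted p 0.252, edgeR). A p above the threshold does not show that E14.5 and E17.5 were alike.

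The gene-poor barcodes could be compared between E17.5 and E14.5 only, since the E12.5 pools held 13 and 15 of them. In 1419 genes tested, 3 were called (0.211%), *Lyz2*, *Sst* and *Cym*, named because the count was small, and with the batch and kit block 7 were called, these 3 among them. *Lyz2*, a macrophage gene, was 32.1, 6.38 and 38.2 CPM at E14.5 and 223 and 137 at E17.5 (4.06 ± 0.69, adjusted p 0.0302, edgeR), and the endocrine gene *Sst* was 0, 0 and 76.4, then 213 and 304. In the other barcodes of these pools both were higher than in the red cells, *Lyz2* at 79.3 to 1752 and *Sst* at 30.0 to 2845. No gene of the erythroid lists was called. *Alas2* differed by 2.39 ± 0.64 (adjusted p 0.166), *Mkrn1* by 1.64 ± 0.54 (adjusted p 0.301), *Ftl1* by 0.48 ± 0.53 (adjusted p 0.7) and *Car2* by -0.53 ± 0.80 (adjusted p 0.785, edgeR). Both E17.5 pools were above all E14.5 pools for *Alas2* and *Mkrn1*, with the v2 E14.5 pool the lowest. Other-cell markers held 0.975%, 0.649% and 2.21% of non-haemoglobin UMIs at E14.5 and 0.753% and 6.49% at E17.5. The count was 18 without the first E14.5 batch or the v2 E17.5 pool, 13 without the v1 E17.5 pool, 8 without the v2 E14.5 pool and 0 without the second E14.5 batch, where 186 genes had an unadjusted p below 0.05.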

How the data were processed

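Single-cell suspensions of pooled embryonic pancreata were profiled with 10x Chromium 3′ libraries of 2 kit versions. The authors deposited UMI counts per gene and barcode, made with Cell Ranger 1.1 (v1) and 2.1 (v2) on mm10 per the submitters' processing notes. These counts were used as deposited, and barcodes with under 200 genes were kept. The kit goes with the sort, the sequencing run and the Cell Ranger version. Per the labels the v1 pools of E12.5 and E17.5 and one of E14.5 form batch 2. The v2 pools carry no batch and were collected on separate days. The paired fit had v1 batch 1, v1 batch 2 and v2 as levels of a block, so it pairs pools by collection within batch 2 only and splits the kit otherwise.

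UMIs were summed per pool and class over 27694 of 27716 genes common to both kits. The 13 mitochondrial genes had 0 UMIs in v1 libraries and were left out together with haemoglobin genes and the genes of the rule, which departs from the intended design. Levels are counts per 1000000 non-haemoglobin UMIs of the class (CPM). The test was edgeR 4.0.16 (R 4.3.3) with quasi-likelihood, TMM scaling, a filter on low counts, stage and kit as terms, and pools with at least 20 barcodes. It was also run on simulated data with less spread between pools and no kit effect, so that run does not show its error rate here. The common dispersion of these data was 0.167 in the class with 200 or more genes and 0.169 in the gene-poor class. DESeq2 1.42.0 was an alternative. Other work used Python 3.11.15, numpy 2.4.6, pandas 2.3.3, scipy 1.17.1 and matplotlib 3.10.9. The p-values measure the spread between pools, and a residual spread was estimated from 3 degrees of freedom in the class with 200 or more genes and 2 in the gene-poor class.

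The barcodes, gene lists and tests were chosen with earlier results of these data known. Genes named are those of the lists and, per comparison, the 6 largest called changes in each direction that stood 2-fold above the other barcodes of the pool in every pool of the higher stage. Haemoglobin genes and unnamed gene models were not named by that rule. Positions of genes were taken from GENCODE on GRCm38. *Ahsp* was not analysed here, and a few genes that these rules would name are not reported here. Alternatives varied the scaling, filter, kit term, haemoglobin share, gene number, shared barcodes and wells, subtracted other-barcode RNA, or left out each pool.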

Additional observations from a re-analysis of the deposited data

How the results depend on the processing

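Counts of called genes moved with most choices, and the cause was not tested. For E17.5 against E12.5 (133 called) they were 46 with library sizes from all UMIs, 576 with no filter on low counts, 11 with no kit term, 221 with the replicate block, 259 and 342 at haemoglobin shares of 50% and 80%, 358 at 200 to under 500 genes with 80%, and 0 with other-barcode RNA subtracted (259 at an unadjusted p below 0.05). For E14.5 against E12.5 (11 called) they were 57 with DESeq2, 103 with no filter, 0 with no kit term (252 unadjusted), 62 and 247 at 50% and 80%, 293 at 200 to under 500 genes with 80%, 2 at 500 or more genes, 7 with v2 E17.5 well 2 alone, and 0 with subtraction (166 unadjusted). For E17.5 against E14.5 (34 called) they were 10 with all UMIs, 220 with no filter, 8 with no kit term, 52 with the replicate block, 1 at 80%, 17 at 200 to under 500 genes with 80%, and 0 with subtraction (116 unadjusted). Leaving out 1 pool gave 54 to 458, 0 to 149 and 14 to 152.

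In the gene-poor class (3 called) counts were 7 with relative log expression size factors, 6 with all UMIs, 16 with DESeq2, 20 with no filter, 7 with the replicate block, 16 with shared barcodes left out, 11 with well 2 alone and 19 at under 150 genes. They were 0 with no kit term (72 unadjusted), at 80% (165), with well 1 alone (154), with subtraction (25) and with barcodes holding other-cell UMIs left out (13), and 0 to 18 without 1 pool. The last choice could not be fitted for 200 or more genes, since most pools kept under 20 barcodes.

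In the 80% set, E17.5 against E12.5 gave 59 with no kit term, 349 with the replicate block, 0 with subtraction (295 unadjusted) and 8 to 386 without 1 pool. E14.5 against E12.5 gave 3 with no kit term, 133 with the replicate block, 0 with subtraction (262 unadjusted) and 23 to 252 without 1 pool. E17.5 against E14.5 gave 13 with relative log expression, 9 with all UMIs, 4 with DESeq2, 0 with no kit term (71 unadjusted), 0 with subtraction (55 unadjusted) and 1 to 23 without 1 pool. The replicate block had 3 levels, the first v1 batch, the second v1 batch and v2, of which only the second v1 batch is a shared collection. Among called listed genes it changed the call in E14.5 against E12.5 of the 80% set only. With all UMIs, haemoglobin included, the median log2 change of all genes became 0.18, 0.94, -0.68 and -1.90 in the first 4 comparisons and -1.07, -0.19 and -0.67 in the 80% set.

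Of 504 alternative values for 21 single genes, 401 kept direction and side of the threshold, 45 lost the call, 55 gained one and 3 changed sign. These were *Lyl1* at 500 or more genes (0.012), and *Alas2* and *Fech* in all barcodes of 200 or more genes without the v2 E17.5 pool (-0.35 and -0.11, the low ends of ranges that reached 2.58 and 2.32 without 1 pool), all for E17.5 against E12.5. Red cell barcodes were 18.2% of all with a haemoglobin share of 80% and 18.4% with shared barcodes left out. The sets at 200 to under 500 genes with 80%, and other choices made within the 80% set, were chosen after seeing the data. The smallest pool of that set held 27247 non-haemoglobin UMIs, which limits low genes.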

Other observations

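A further E14.5 library, of *Fev*-Cre reporter embryos, held no red cell barcode by the same rule among 7897 barcodes. Its smallest barcode had 994 genes, so barcodes of the size of most red cells were absent beforehand and no share of red cells is read from it. Its highest haemoglobin share was 32.8%, and 20 barcodes held an *Alas2* UMI.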
